A study of Mus musculus with 4 samples.

Results

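The Hox genes were examined in ovaries of mouse embryos at E13.5, in which Sall1 was or was not overexpressed. They were taken as all genes of the count table whose symbol is Hoxa, Hoxb, Hoxc or Hoxd followed by a number. This rule found 39 of the 34682 genes listed, of which 11 belonged to Hoxa, 10 to Hoxb, 9 to Hoxc and 9 to Hoxd. At least 1 read fell on 38 of them, and 28 had enough reads to be tested.

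RNA was sequenced from 4 libraries, 2 of Sall1-overexpressing mutant ovaries and 2 of ovaries labelled wild type, numbered 1 and 2 within each group. The mutants carried a BAC, a large genomic insert, in which the promoter and regulatory elements of Wt1 drive the Sall1 coding sequence, so that Sall1 is switched on wherever these elements are active and not in a single cell type. The BAC had been integrated by PiggyBac transposition into female embryonic stem cells of C57BL/6J or mixed C57BL/6J and 129 background, from which embryos were made by morula aggregation, and the sources do not say whether both mutant libraries came from the same stem cell clone or how many ovaries were pooled. The wild-type ovaries are described as littermates in one place of the study and as CD1 in another, and the wild-type columns of the count table carry B6 in their names, so that the genetic background may differ between the groups and cannot be told apart from the genotype. Nothing in the labels says that the libraries of a group are separate animals, and the p-values below measure only the spread between these libraries.

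Hox genes encode homeodomain transcription factors and lie side by side in clusters, each on a chromosome of its own. Genes at the same position in different clusters descend from a common ancestor and form a paralog group, and the groups with low numbers lie at the 3′ end of a cluster and are used further forward in the embryo than those with high numbers at the 5′ end. The combination of Hox genes in a tissue is therefore read as a positional code along the body axis, and HOX proteins bind DNA together with homeodomain partners of the PBX, MEIS and PKNOX families. The kidneys and gonads form side by side from the intermediate mesoderm of the trunk, and the genes of paralog group 11 are known for their part in the metanephric kidney.

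In the NCBIM37 annotation, the Hoxa genes lay between 52105366 and 52210874 on the minus strand of chromosome 6, a span of 105.5 kb. The other clusters lay on plus strands, with Hoxb on chromosome 11 between 96055630 and 96229570 (173.9 kb), Hoxc on chromosome 15 between 102751534 and 102867274 (115.7 kb) and Hoxd on chromosome 2 between 74506367 and 74603200 (96.83 kb). All of these genes are annotated as protein coding.

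Total counts were lower for mutant (11036313 and 14893508) than for wild type (17214470 and 17869840). A count of 3, taken as the floor of detection, lay between 0.170 and 0.272 CPM, the count scaled to a common library size. Sall1, which checks the labels, had 1243 and 1445 counts in mutant and 279 and 223 in wild-type ovaries, a log2 fold change of 2.85 (SE 0.16, adjusted p = 0.00823 by the edgeR quasi-likelihood F-test, Benjamini-Hochberg adjusted). All 9 markers of gonadal somatic cells and all 6 of germ cells passed the filter on low counts. This does not check the ovarian label, since all 6 endothelial and 7 of 8 skeletal muscle markers passed it too. The summed level of skeletal muscle markers differed by replicate number and was also lower in mutant within each number. The sums were 40.7 and 228 CPM in the mutant and wild-type libraries numbered 1 and 9.04 and 13.1 CPM in those numbered 2. Between the libraries numbered 2, Myh3 and Tnnt3 were slightly higher in mutant (log2 differences 0.03 and 0.16). Ckm was also higher there, at 1 count against 0, and the other listed muscle markers were lower.

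Hoxd9 had the highest level per length of any Hox gene in wild-type ovaries and is also the Hox gene with the smallest p between the groups. Promoters of 3 Hoxd genes are shown here because all the tested genes of this cluster were lower in the mutant libraries. Hoxd9 was taken as the leading gene, and the windows of Hoxd11 and Hoxd4 because they hold motif matches. They cover 250 bases before and 50 bases after the annotated start in the RefSeq promoter table of GRCm38.p6, all on the plus strand, at chr2:74697513-74697812 for Hoxd9, at chr2:74682073-74682372 for one start of Hoxd11, and at chr2:74721728-74722027 for Hoxd4. Capitals mark matches on either strand to 4 motifs, namely TGATTNAT (a site bound jointly by PBX and HOX), TTTATNG (CDX), TAATTA (a core bound by many homeodomain proteins) and TGACAG (MEIS).
Hoxd9: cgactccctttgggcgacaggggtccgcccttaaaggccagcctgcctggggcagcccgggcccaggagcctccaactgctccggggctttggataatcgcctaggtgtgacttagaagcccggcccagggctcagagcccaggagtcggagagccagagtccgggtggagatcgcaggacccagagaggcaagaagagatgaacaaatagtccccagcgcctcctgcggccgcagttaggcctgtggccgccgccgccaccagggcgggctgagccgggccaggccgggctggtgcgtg
Hoxd11: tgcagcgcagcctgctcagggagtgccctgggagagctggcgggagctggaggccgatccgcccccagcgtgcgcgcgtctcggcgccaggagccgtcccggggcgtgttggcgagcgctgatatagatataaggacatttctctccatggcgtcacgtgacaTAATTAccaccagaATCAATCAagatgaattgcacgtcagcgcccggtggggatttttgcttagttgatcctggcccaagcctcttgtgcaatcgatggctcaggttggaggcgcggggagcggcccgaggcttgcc
Hoxd4: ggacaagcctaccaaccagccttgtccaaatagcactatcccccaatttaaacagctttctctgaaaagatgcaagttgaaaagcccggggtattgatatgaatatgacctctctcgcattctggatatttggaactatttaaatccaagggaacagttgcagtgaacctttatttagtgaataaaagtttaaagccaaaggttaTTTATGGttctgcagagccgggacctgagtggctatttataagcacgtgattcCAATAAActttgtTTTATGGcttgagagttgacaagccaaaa
The Hoxd9 window held none of the 4 motifs and had 20 CpG dinucleotides. The Hoxd11 window held 1 PBX-HOX match, read on the minus strand, and 1 TAATTA match, with 25 CpG. The Hoxd4 window held 3 CDX matches and 4 CpG. No matches overlapped each other in these windows. Promoter entries were found for 22 of the 39 Hox genes, with 24 windows in all, among them all 9 Hoxd genes. Each of the 4 motifs was found in 2 of the 24 Hox windows (8.33%), against 3.22% of all 32851 promoters for PBX-HOX, 10.9% for CDX, 5.29% for TAATTA and 19.2% for MEIS. The median number of CpG was 14.5 in the Hox windows, 20 in the 10 Hoxd windows and 7 in all promoters. These matches describe the letters of the windows only.

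The wild-type code was read from RPKM values, that is CPM per kilobase of exon, since levels of different genes can be compared only per length. Hoxd and Hoxc genes led it. Hoxd9 stood at 13.1 ± 1.02 RPKM (SD, n = 2), with 13.8 and 12.4 in the wild-type libraries. Hoxd8 followed with 8.51 and 9.44 RPKM, Hoxc8 with 6.75 and 7.15 RPKM and Hoxc6 with 6.09 and 6.82 RPKM. Hoxd9 and Hoxd8 differed by more than the spread between the 2 libraries, as did Hoxd8 and Hoxc8, whereas the values of Hoxc8 and Hoxc6 overlapped. The order below Hoxd9 depended on the length used. Per longest protein-coding transcript, mean Hoxc6 (9.64 RPKM) was above mean Hoxd8 (9.35 RPKM). Per exon bases not shared with another gene, Hoxd4 rose from 1.11 to 3.41 RPKM. By that length Hoxd3 rose from 1.99 to 3.10 RPKM and Hoxb3 from 1.66 to 2.67 RPKM.

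Further down the order, Hoxd10 stood at 4.29 ± 0.873 RPKM (SD, n = 2), Hoxc5 at 4.23 ± 0.0213 and Hoxc4 at 3.76 ± 0.210. Hoxd10 and Hoxc5 overlapped, and Hoxc5 was above Hoxc4 in both libraries. The leading Hoxb genes were Hoxb9 at 3.12 ± 0.403 RPKM and Hoxb3 at 1.66 ± 0.294 RPKM, and the leading Hoxa genes were Hoxa5 at 1.98 ± 0.440 RPKM and Hoxa9 at 0.872 ± 0.109 RPKM (SD, n = 2). Among the first 10 genes, 5 of the 9 neighbouring steps showed no overlap between the libraries. In total, 13 Hox genes reached 1 RPKM and 4 reached 5 RPKM. The 7 genes with the highest CPM gave 66.4% of the summed CPM of all Hox genes.

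Hox genes were weakly expressed in these ovaries. The median of the Hox genes tested was 0.868 RPKM, against 7.75 RPKM over the 13580 genes tested that had a length, and Hoxd9 lay at the 64.4th percentile of those genes. Reads at this level leave a wide error, and the median standard error of a log2 fold change was 0.40 for the Hox genes tested and 0.16 for all genes tested. Counts from bulk tissue also cannot tell fewer cells of a type from less RNA per cell.

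**Figure D1:**
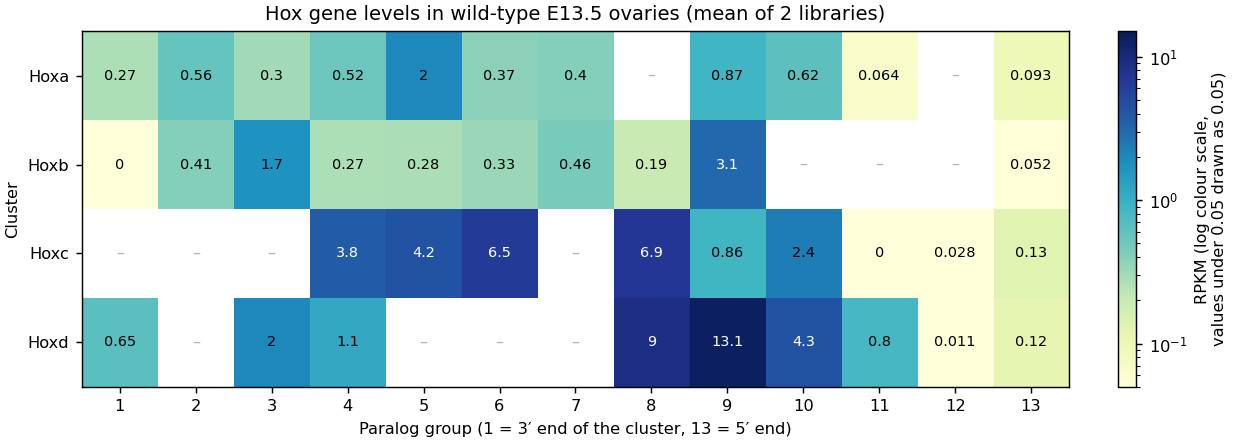
Mean RPKM (colour, log scale, and printed value) of each Hox gene in the 2 wild-type libraries, with clusters in rows and paralog groups in columns. A dash marks a position with no gene. Levels were highest at Hoxd9 (13.1 RPKM), and all genes of groups 12 and 13 were below the level of Hoxb8 (0.195 RPKM).

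Across paralog groups, expression was concentrated in the middle and posterior part of the code. Group 9 held 26.2% of the summed RPKM of wild-type Hox genes and group 8 held 23.5%, followed by group 10 with 10.6%, group 6 with 10.4% and group 5 with 9.45%. The order of these means did not hold in each library, as group 9 stood at 19.3 and 16.7 RPKM and group 8 at 15.4 and 16.8 RPKM, and group 10 stood at 8.80 and 5.74 RPKM beside 6.91 and 7.40 RPKM for group 6. Groups 1 to 3 together gave 8.49%, groups 4 to 8 gave 52.8%, groups 9 and 10 gave 36.8%, and groups 11 to 13 gave 1.89%. Within a paralog group the clusters were not used alike, as Hoxd9 stood at 13.1 RPKM while Hoxa9 and Hoxc9 stood at 0.872 and 0.865 RPKM. Likewise in group 8, the level of Hoxb8 was 0.195 RPKM beside 8.98 RPKM for Hoxd8 and 6.95 RPKM for Hoxc8.

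The posterior ends of the clusters, other than Hoxd11, were close to silent, as was Hoxb1 at the anterior end. The anterior genes Hoxd3 and Hoxb3 stood at 1.99 and 1.66 RPKM in wild-type ovaries, and Hoxc4, at the 3′ end of its cluster, at 3.76 RPKM. Hoxb1, an anterior gene used in the hindbrain, had 0 counts in all 4 libraries. Hoxb13 had 2 counts in each of 3 libraries and 0 in mutant replicate 2, and Hoxc11, Hoxc12 and Hoxd12 had 1 count in a single library each. These 5 genes were at or under the floor of 3 counts in every library. The other genes of groups 11 to 13 were scarcely above it, with between 1 and 4 counts for Hoxa11, between 2 and 8 for Hoxa13, between 4 and 6 for Hoxc13 and between 4 and 6 for Hoxd13. Hoxd11, a gene of the kidney group 11, was the exception, with 100 and 51 counts in the wild-type libraries, or 5.81 and 2.89 CPM. At this depth, the remaining posterior genes could not be compared between the groups.

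Summed over clusters, Hoxd genes were lower and Hoxc genes higher in both mutant libraries. The Hoxd sum was 66.0 and 56.7 CPM in mutant and 89.4 and 80.5 CPM in wild-type ovaries, so that the mutant mean was 72.2% of the wild-type mean (log2 ratio -0.47). The groups did not overlap, and the log2 ratio was -0.44 between the libraries numbered 1 and -0.51 between those numbered 2. The Hoxc sum was 84.0 and 67.4 CPM in mutant and 62.0 and 60.1 CPM in wild-type ovaries, with a mutant mean of 124% of the wild-type mean (log2 ratio 0.31). Here too the groups did not overlap, but the log2 ratio was 0.44 between the libraries numbered 1 and 0.16 between those numbered 2.

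The other clusters differed less clearly. The Hoxb sum was 18.1 and 13.4 CPM in mutant and 18.6 and 20.3 CPM in wild-type ovaries (log2 ratio -0.30), with almost the whole difference in the libraries numbered 2, where it was -0.60, against -0.04 in those numbered 1. The Hoxa sum was 20.2 and 13.03 CPM in mutant and 16.8 and 15.9 CPM in wild-type ovaries, and the mutant values enclosed those of the wild type. All 39 genes together gave 188 and 150 CPM in mutant and 187 and 177 CPM in wild-type ovaries, with overlap between the groups. The cluster sums are given without a test, since an exact permutation test of 2 against 2 cannot give a p below 0.333.

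The balance between Hoxc and Hoxd does not depend on how libraries are scaled to each other, because it is taken within each library. The ratio of Hoxc to Hoxd counts was 1.27 and 1.19 in mutant and 0.693 and 0.747 in wild-type ovaries. This pair joins the clusters with the highest and the lowest log2 ratio of sums (0.31 and -0.47). Hoxa over Hoxd (0.307 and 0.230 against 0.188 and 0.198) was also apart. So were Hoxc over Hoxb (4.63 and 5.04 against 3.33 and 2.96) and Hoxc over Hoxa (4.15 and 5.17 against 3.69 and 3.78). Hoxb over Hoxd overlapped (0.275 and 0.236 against 0.208 and 0.252). A background share for such ratios was not computed. Hoxd genes gave 47.9% and 45.5% of all Hox counts in wild-type ovaries and 35.0% and 37.7% in mutant ovaries, and Hoxc genes 33.2% and 34.0% against 44.6% and 44.8%. By counts, Hoxd was the leading cluster in both wild-type libraries and Hoxc in both mutant libraries. The same direction was seen in the 4 paralog groups in which both clusters had a tested gene. The ratio of Hoxc4 to Hoxd4 counts was 6.19 and 6.60 in mutant and 3.19 and 3.62 in wild-type ovaries. That of Hoxc8 to Hoxd8 was 1.17 and 0.753 against 0.664 and 0.635. For Hoxc10 and Hoxd10 it was 0.637 and 0.842 against 0.451 and 0.320, and for Hoxc9 and Hoxd9 it was 0.137 and 0.154 against 0.0885 and 0.0565. In these 4 ratios, every mutant value was above both wild-type values. Their genes are already part of the cluster sums, so these ratios show where the difference lay and are no separate support for it.

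**Figure D2:**
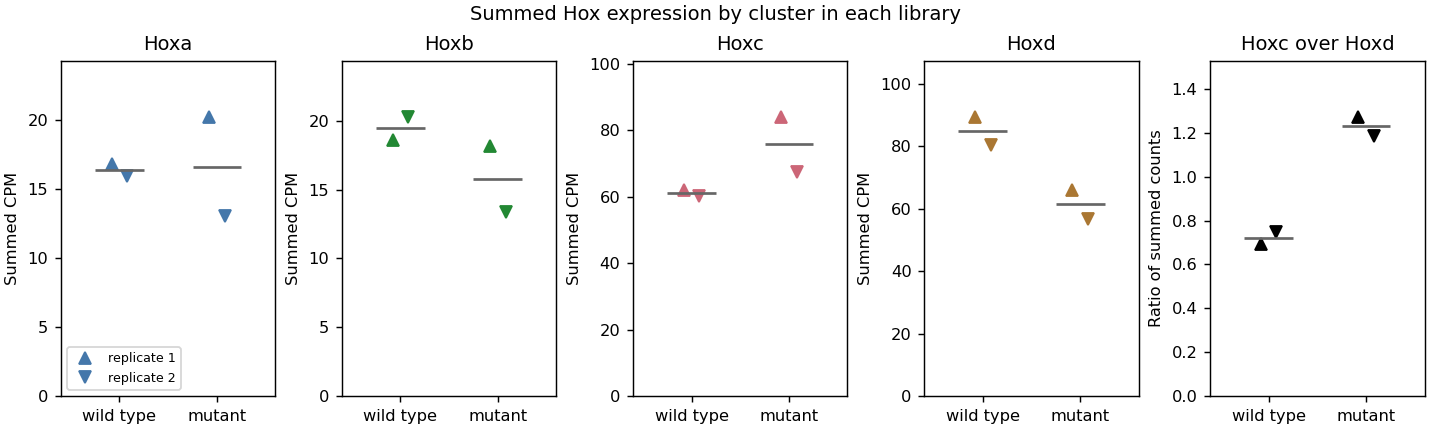
Summed CPM of all genes of each Hox cluster in each library, and the ratio of summed Hoxc to summed Hoxd counts (right), with triangles for single libraries and lines for group means. Both mutant libraries lie below both wild-type libraries for Hoxd (66.0 and 56.7 against 89.4 and 80.5 CPM) and above them for the ratio (1.27 and 1.19 against 0.693 and 0.747).

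By edgeR, 0 of the 28 Hox genes tested passed an adjusted p of 0.05, a threshold that 9 of all 15442 genes tested passed (0.0583%). DESeq2, run as an alternative, also called 0 Hox genes, with 105 of 14480 genes called (0.725%). At an unadjusted p under 0.05, 4 Hox genes differed by edgeR, where Hoxd9, Hoxd1 and Hoxd11 were lower and Hoxc5 was higher in mutant ovaries, beside 5.69% of all genes tested (2.73% lower and 2.95% higher). The median log2 fold change of the 28 genes was -0.22, against -0.0009 over all genes tested. By cluster it was -0.56 over 7 Hoxd genes, -0.38 over 7 Hoxb genes, 0.05 over 8 Hoxa genes and 0.33 over 6 Hoxc genes.

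**Figure D3:**
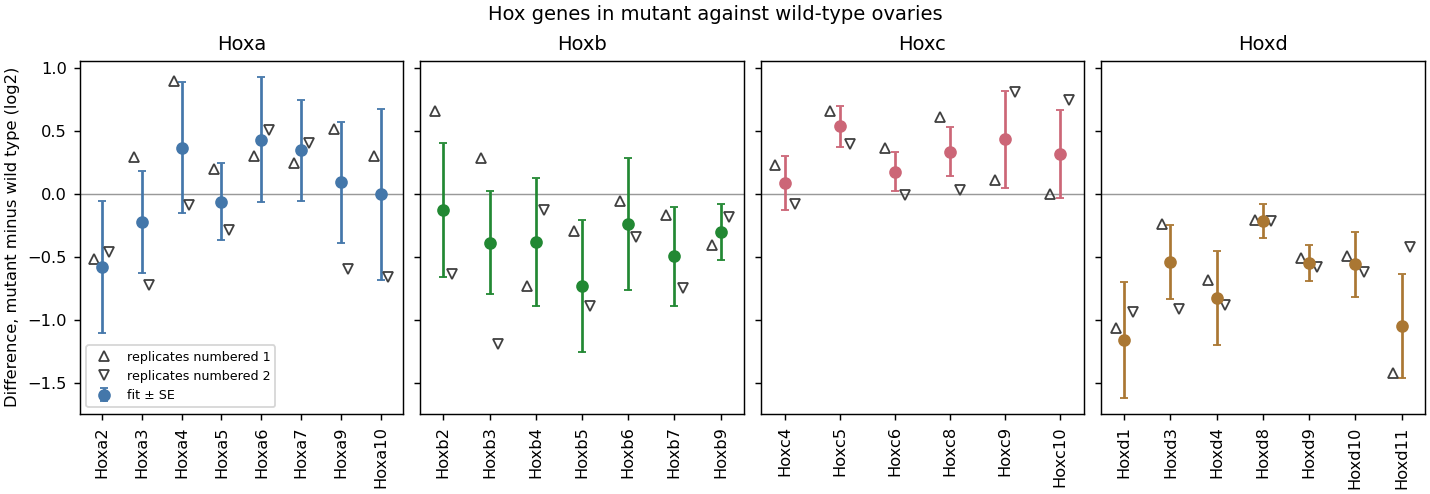
Log2 fold change of each tested Hox gene, mutant against wild type, from 3′ to 5′ along each cluster, with filled circles and bars for the fitted value ± SE and open triangles for the differences between libraries of the same replicate number. All 7 Hoxd values and all 7 Hoxb values are below 0 and all 6 Hoxc values above it, the triangles of Hoxd8 and Hoxd9 nearly coincide, and those of Hoxa9, Hoxb2 and Hoxb3 lie on opposite sides of 0.

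All 7 tested Hoxd genes had lower CPM in both mutant libraries than in both wild-type libraries, as did 15.1% of all genes tested. Hoxd9 had 21.2 and 18.1 CPM in mutant and 30.2 and 27.1 CPM in wild-type ovaries. Its log2 fold change was -0.55 (SE 0.14, adjusted p = 0.477 by the edgeR quasi-likelihood F-test, Benjamini-Hochberg adjusted), with differences of -0.51 and -0.58 between libraries of the same number. The libraries of each group lay close together and the groups did not overlap, but the adjusted p over all genes missed the threshold. It passed only in edgeR fits with the replicate number as a block, which called 2.49% of all genes tested. None of the annotated exon bases of Hoxd9 were shared with another gene.

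Its neighbours on the 5′ side behaved less evenly. Hoxd10 had 9.25 and 6.31 CPM in mutant and 13.02 and 9.75 CPM in wild-type ovaries (log2 fold change -0.56, SE 0.26, and between -0.85 and -0.30 without each library in turn). Hoxd11 had 2.09 and 2.13 CPM in mutant and 5.81 and 2.89 CPM in wild-type ovaries (log2 fold change -1.04, SE 0.41). For Hoxd11 the wild-type libraries differed from each other by more than the lower of them differed from the mutant libraries, and the differences between libraries of the same number were -1.42 and -0.42.

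On the 3′ side, Hoxd8 had 20.2 and 22.3 CPM in mutant and 23.4 and 25.9 CPM in wild-type ovaries, the smallest difference among the tested genes of the cluster (log2 fold change -0.21, SE 0.14). Hoxd4 had 1.91 and 1.33 CPM against 3.14 and 2.55 CPM (log2 fold change -0.82, SE 0.37), and Hoxd3 had 10.3 and 5.72 CPM against 12.2 and 10.9 CPM (log2 fold change -0.54, SE 0.29). The estimate for Hoxd3 depended on the library left out, with -1.01 without mutant replicate 1 and -0.16 without mutant replicate 2. Hoxd4 and Hoxd3 are not independent readings, since 67.4% of the annotated exon bases of Hoxd4 are shared with Hoxd3. At the 3′ end, Hoxd1 had 6 and 8 counts in mutant and 22 and 20 in wild-type ovaries (log2 fold change -1.15, SE 0.46). Along the cluster the estimates were thus furthest from 0 at both ends and nearest to 0 at Hoxd8, but Hoxd1 and Hoxd11, at the ends, had wider standard errors than the other tested genes of the cluster. Haglr, a noncoding RNA from the same cluster, had 24 and 24 counts in mutant and 53 and 42 in wild-type ovaries (log2 fold change -0.54, SE 0.36). Mtx2, the coding gene beyond the 3′ end of the cluster, had a log2 fold change of -0.01 (SE 0.09), and Evx2, beyond its 5′ end, had 0 counts in every library.

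In the Hoxc cluster all 6 tested genes had a positive log2 fold change, as 49.8% of all genes tested did, and Hoxc5, Hoxc8 and Hoxc9 did not overlap between the groups. Hoxc5 had 19.6 and 16.4 CPM in mutant and 12.3 and 12.4 CPM in wild-type ovaries. Its log2 fold change was 0.54 (SE 0.16, adjusted p = 0.602 by the edgeR quasi-likelihood F-test, Benjamini-Hochberg adjusted), with differences of 0.66 and 0.40 between libraries of the same number. Both mutant libraries were above both wild-type libraries by more than the spread within the groups, and 15.4% of the exon bases of Hoxc5 are shared with the annotated gene Gm20398.

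For the other Hoxc genes, the difference rested largely on 1 library. Hoxc8 had 23.8 and 16.8 CPM in mutant and 15.5 and 16.4 CPM in wild-type ovaries (log2 fold change 0.34, SE 0.19), and Hoxc6 had 19.7 and 16.9 CPM against 15.2 and 17.1 CPM (log2 fold change 0.18, SE 0.16). In both genes mutant replicate 1 was high and mutant replicate 2 was near the wild-type libraries. Hoxc9 (log2 fold change 0.44, SE 0.39) and Hoxc10 (log2 fold change 0.32, SE 0.35) showed the opposite, with differences of 0.11 and 0.01 between the libraries numbered 1 and of 0.82 and 0.75 between those numbered 2, where wild-type replicate 2 was low. Without that library, the log2 fold change was 0.10 for Hoxc9 and -0.06 for Hoxc10, and without mutant replicate 1 it was 0.07 for both Hoxc8 and Hoxc6. Hoxc4 had 11.8 and 8.77 CPM against 9.997 and 9.24 CPM and overlapped (log2 fold change 0.09, SE 0.21). The flanking genes Calcoco1 and Smug1 had log2 fold changes of 0.17 (SE 0.11) and -0.06 (SE 0.16).

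All 7 tested Hoxb genes had a negative log2 fold change, as did 50.2% of all genes tested, from -0.73 for Hoxb5 to -0.12 for Hoxb2, with standard errors between 0.22 and 0.53. Hoxb9 had 6.62 and 6.45 CPM in mutant and 8.78 and 7.31 CPM in wild-type ovaries (log2 fold change -0.30, SE 0.22). Hoxb9, Hoxb7 and Hoxb5 did not overlap between the groups, although Hoxb5 had only 6 and 6 counts against 12 and 15. Hoxb3 had 5.35 and 2.39 CPM in mutant and 4.36 and 5.61 CPM in wild-type ovaries, with differences of 0.29 and -1.19 between libraries of the same number, so that its mean difference (log2 fold change -0.38, SE 0.41) came from mutant replicate 2. Hoxb2 had 1.27 and 1.196 CPM against 0.756 and 1.93 CPM, and its wild-type values enclosed the mutant ones. Antisense transcripts are annotated across 49.4% of the exon bases of Hoxb2 and 37.9% of those of Hoxb3, and without knowledge of the strand these reads cannot be assigned. Beside the cluster, Ttll6 had a log2 fold change of 0.46 (SE 0.36), and Skap1 had between 4 and 6 counts and was not tested.

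The Hoxa genes had no common direction, with 3 negative and 5 positive estimates. Hoxa5 had 3.63 and 3.52 CPM in mutant and 3.14 and 4.31 CPM in wild-type ovaries (log2 fold change -0.06, SE 0.31). Hoxa9 had 4.81 and 1.79 CPM against 3.31 and 2.78 CPM (log2 fold change 0.10, SE 0.48), and Hoxa10 had 3.90 and 0.997 CPM against 3.14 and 1.64 CPM (log2 fold change 0.00, SE 0.68). In both of these posterior genes the libraries numbered 1 were higher than those numbered 2 in each group, and the mutant libraries enclosed those of the wild type. Hoxa7, with 1.54 and 1.40 CPM against 1.28 and 1.02 CPM, was the only Hoxa gene without overlap. The flanking genes Skap2 and Evx1 had log2 fold changes of 0.00 (SE 0.17) and 0.06 (SE 0.42).

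Counted over both same-numbered comparisons, 13 of the 28 genes were lower in mutant ovaries in each of them, among them all 7 Hoxd genes and 5 Hoxb genes, against 27.3% of all genes tested. Another 6 genes, 4 of them Hoxc genes, were higher in each, against 26.5% of all genes tested. The remaining 9 genes differed in opposite directions, and for Hoxa9 and Hoxb2 the opposite differences exceeded 0.5 on the log2 scale in each comparison (0.52 and -0.59 for Hoxa9, 0.66 and -0.63 for Hoxb2), as for 306 of all 15442 genes tested. The median difference of the 28 genes was 0.06 between the libraries numbered 1 and -0.38 between those numbered 2. For Hoxd genes alone it was -0.51 and -0.62, and for Hoxc genes 0.30 and 0.22. Without regard to replicate numbers, 10 Hox genes lay lower in both mutant libraries than in both wild-type libraries (7 Hoxd and 3 Hoxb), with a background of 15.1% of all genes tested, and 4 lay higher (Hoxa7, Hoxc5, Hoxc8 and Hoxc9), with a background of 15.8%.

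By paralog group, the sums of groups 1, 2, 3, 9 and 11 were lower and those of groups 5, 6 and 13 higher in both mutant libraries than in both wild-type libraries. Of all single genes tested, 15.1% lay lower and 15.8% higher in this way. Group 1 sums were 0.998 and 1.13 CPM in mutant and 1.80 and 1.93 CPM in wild-type ovaries (log2 ratio -0.81), and group 11 sums, mostly of Hoxd11, were 2.18 and 2.39 CPM against 6.04 and 3.003 CPM (log2 ratio -0.99). The log2 ratio was -0.32 for group 2, -0.44 for group 3, 0.18 for group 6 and 0.18 for group 13. For groups 2 and 3 it was only -0.03 and -0.03 between the libraries numbered 1, against -0.63 and -0.99 between those numbered 2. Group 6 was apart by little, at 21.6 and 18.28 CPM in mutant and 16.9 and 18.25 CPM in wild-type ovaries. Group 13 had 12 and 16 counts in mutant and 17 and 16 in wild-type ovaries, too few for a comparison. Group 9 sums, mostly of Hoxd9, were 35.6 and 29.1 CPM in mutant and 45.0 and 38.7 CPM in wild-type ovaries (log2 ratio -0.37), without overlap. Group 5 sums, mostly of Hoxc5, were 23.8 and 20.3 CPM against 16.2 and 17.6 CPM (log2 ratio 0.39), also without overlap. Group 8, to which both Hoxc8 and Hoxd8 contribute, overlapped at 45.4 and 39.3 CPM against 39.3 and 43.0 CPM (log2 ratio 0.04). Groups 1 to 3 together gave 21.3 and 12.5 CPM against 22.6 and 23.7 CPM, and groups 9 and 10 together 54.6 and 41.7 CPM against 67.0 and 53.2 CPM.

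Genes that act with or on Hox genes were examined from lists, and by edgeR none of their members were called. The list of homeodomain partners of the TALE class had 8 of 9 genes tested, with a median log2 fold change of 0.00. Pbx2, a DNA-binding partner of many HOX proteins, had a log2 fold change of 0.07 (SE 0.10). Pknox2 had 36.6 and 27.9 CPM in mutant and 48.9 and 40.1 CPM in wild-type ovaries (log2 fold change -0.47, SE 0.17, adjusted p = 0.769 by the edgeR quasi-likelihood F-test, Benjamini-Hochberg adjusted), without overlap. Meis1 and Meis2, of the same class, had log2 fold changes of 0.04 (SE 0.13) and 0.25 (SE 0.18).

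Among the regulators that set Hox expression along the axis, 11 of 16 were tested and the median log2 fold change was -0.11. Aldh1a2, the enzyme that makes retinoic acid from retinaldehyde, had 78.8 and 60.6 CPM in mutant and 137 and 146 CPM in wild-type ovaries. Its log2 fold change was -1.03 (SE 0.14) with an adjusted p of 0.106 by the edgeR quasi-likelihood F-test, Benjamini-Hochberg adjusted, and of 3.01e-08 by DESeq2, so that it was called by DESeq2 and not by edgeR. The mutant libraries were both far below the wild-type libraries. The retinoic acid receptors Rara, Rarb and Rarg had log2 fold changes of -0.02, 0.12 and -0.34 (SE 0.14, 0.20 and 0.21). Cdx1 and Cdx2, caudal factors that act upstream of the central Hox genes, were also the only ParaHox genes tested, out of 6 listed, and had log2 fold changes of -0.22 and -0.41 (SE 0.34 and 0.21). Nr6a1 had a log2 fold change of -0.02 (SE 0.12). T had 8 and 7 counts against 21 and 25.

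Chromatin regulators of the clusters differed little. All 19 listed Polycomb genes, which keep Hox genes silent, were tested, and their log2 fold changes lay between -0.11 and 0.26, with a median of -0.002. Jarid2 and Kdm2b, which help bring Polycomb complexes to chromatin, had log2 fold changes of 0.001 and 0.03 (SE 0.10 and 0.09). Among the Trithorax genes, which keep Hox genes active, 8 of 10 were tested, with a median of 0.00, where Psip1 was at -0.08 (SE 0.10) and Wdr5 at 0.01 (SE 0.09). Kmt2a, the best known of them, had 0 counts in 3 libraries and 2 in mutant replicate 2, and Mll1, its older symbol, was listed separately at 0 in all 4, and the cause was not tested.

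Of 18 listed noncoding RNAs and Evx genes of the clusters, 17 were in the count table and 3 were tested, namely Haglr, Evx1 and Mir196a-1, the last with a log2 fold change of 0.39 (SE 0.37). Hotair, Hottip and 6 others had 0 counts in every library. Hoxd3os1 had 1 and 0 counts in mutant and 5 and 6 in wild-type ovaries, and Hotairm1 had 3 and 0 against 8 and 8, too few for a test.

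**Figure D4:**
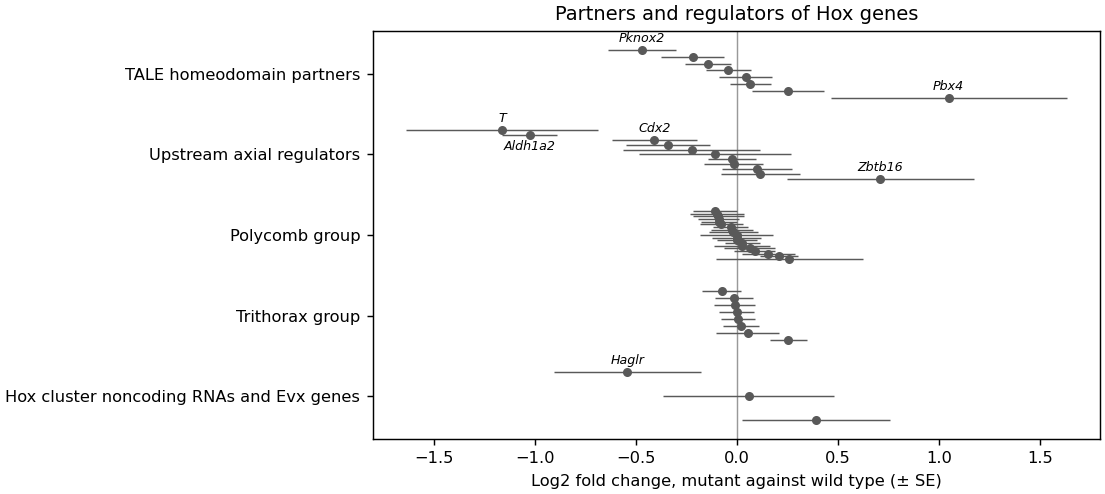
Log2 fold change ± SE, mutant against wild type, of the tested members of 5 lists of genes that act with or on Hox genes, with names at values beyond 0.4 in either direction. All 19 Polycomb genes and all 8 tested Trithorax genes lie between -0.11 and 0.26, and Aldh1a2 lies at -1.03.

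Partners and targets of the group 11 genes in kidney mesenchyme gave 6 of 7 genes tested and none called by edgeR. Itga8, an integrin subunit of this mesenchyme, had 52.4 and 59.6 CPM in mutant and 79.6 and 86.6 CPM in wild-type ovaries (log2 fold change -0.57, SE 0.11), without overlap, with an adjusted p of 0.277 by the edgeR quasi-likelihood F-test, Benjamini-Hochberg adjusted, and of 0.0366 by DESeq2. Six2 and Eya1 had between 19 and 47 counts and overlapped between the groups, and Wt1 had a log2 fold change of 0.03 (SE 0.10).

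Because the level of a Hox gene depends on which tissues a dissected ovary holds, markers of other cell types were set beside the Hox values. The summed level of 7 kidney mesenchyme markers was 74.9 and 75.4 CPM in mutant and 97.2 and 103 CPM in wild-type ovaries, lower without overlap as for Hoxd, and most of this sum was Itga8. Six2 and Foxd1, which define nephron progenitors and stroma, were low, with between 19 and 30 counts for Six2 and between 6 and 20 for Foxd1. Skeletal muscle markers, of which 7 were tested and 0 called by edgeR without the block or by DESeq2, summed to 228 CPM in wild-type replicate 1 and to at most 40.7 CPM elsewhere. Hoxd11 was also highest in this library, at 5.81 CPM. Blood markers were 2868 and 801 CPM in mutant and 3137 and 1547 CPM in wild-type ovaries.

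Neural markers summed to 31.9 and 25.8 CPM in mutant and 42.1 and 33.4 CPM in wild-type ovaries, lower in mutant without overlap, and endothelial markers to 441 and 421 CPM against 461 and 476 CPM, also without overlap. Mesonephric duct and tubule markers summed to 90.1 and 81.8 CPM against 84.5 and 79.7 CPM and overlapped, and germ cell markers to 1394 and 1615 CPM against 1463 and 1586 CPM. Single mesonephric markers differed in both directions, with 4 of the 7 tested negative. Pax8 had 13.9 and 17.7 CPM in mutant and 9.07 and 9.07 CPM in wild-type ovaries (log2 fold change 0.80, SE 0.19). Ret had 8.71 and 14.3 CPM against 15.2 and 17.8 CPM (log2 fold change -0.51, SE 0.25). Neither overlapped between the groups. Among the gonadal somatic markers, Lhx9 had 132 and 101 CPM in mutant and 173 and 171 CPM in wild-type ovaries (log2 fold change -0.56, SE 0.14, adjusted p of 0.407 by the edgeR quasi-likelihood F-test, Benjamini-Hochberg adjusted, and of 0.0230 by DESeq2). Foxl2, a marker of female supporting cells, had 46.3 and 44.1 CPM against 28.0 and 32.0 CPM (log2 fold change 0.59, SE 0.12, adjusted p = 0.301 by edgeR's test). The part that these cell types have in the Hox values was not tested.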

How the data were processed

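RNA was extracted from ovaries at E13.5 and sequenced on an Illumina HiSeq in 4 libraries. The authors aligned the reads with STAR (2.6.1d in the submitters' processing notes, which also name mm9) and counted reads per gene with summarizeOverlaps, and deposited the raw counts of each library. The annotation, the overlap mode and the handling of strands are not given in the sources used here. The file holds no columns of the authors' comparisons, and each column was matched to its sample by the genotype and number in its name, leaving 0 unused.

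The members and the lists of partners, regulators and markers were chosen with earlier results of these data known. Counts were read into R 4.3.3 and fitted with edgeR 4.0.16 (TMM normalization, filterByExpr, 15442 genes tested, quasi-likelihood F-test, genotype as the only factor), and p-values were adjusted by Benjamini and Hochberg over all genes tested, with a threshold of 0.05. A standard error is the size of the fold change divided by the square root of F. CPM used TMM library sizes throughout. Differences between libraries of the same number are of log2 CPM with a prior count of 2. The floor of 3 counts covers counting error only. RPKM were computed here from the union of exons in GENCODE M1 on NCBIM37, with 2 annotation entries of Hoxa3 merged. These coordinates are not the authors', and the counting annotation may differ. Promoters came from RefSeq (GRCm38.p6), without conversion between builds, and 17 Hox genes had no entry.

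Genes were named by a rule: in wild type, the 2 genes with the highest RPKM per cluster and those at or under the floor, the 5 lowest p-values among the higher and among the lower genes, those with opposite differences over 0.5 in both same-numbered comparisons, Sall1, list members called in any fit, the 2 members with the highest wild-type CPM per regulator list, and the coding neighbours of each cluster. Others, such as Hoxd3, Hoxa7, Hoxa10, Hoxb5, Meis1, Rara and T, were chosen after their values were seen. Of the listed genes, Hoxb3os was not in the count table, and some that the rule names are not reported here.

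The libraries of a group differed by more than sampling noise (chi-square per degree of freedom 11.8 in mutant and 13.2 in wild type) and were counted separately. Alternatives were DESeq2 1.42.0 with default settings, RLE and upper-quartile normalization, other filters, the likelihood ratio test, a replicate block, other lengths and leaving out each library, while the block combined with DESeq2 and with no filter was added later, with the data known. The fits were tested on simulated data. Where a library was left out, the lone library of its group was assumed to vary like those of the other group. Limma, which edgeR loads, was version 3.58.1.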

Additional observations from a re-analysis of the deposited data

How the results depend on the processing

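With 2 libraries a group and few reads on most Hox genes, depth limits what can be seen. Hoxd genes stayed lower under the alternatives run, except Hoxd13, which only unfiltered fits and DESeq2 tested and which had 4 to 6 counts, and Sall1 stayed higher under the 10 run for it. Hoxc genes stayed higher except Hoxc4 without mutant replicate 1, Hoxc10 without wild-type replicate 2, and Hoxc12 and Hoxc13, which only DESeq2 and the unfiltered fits tested. Of 191 values of single Hox genes under alternatives with all libraries, 186 kept their sign.

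Over all genes, 9 were called, against 105 with DESeq2, 134 with the likelihood ratio test, 28 with no filter on low counts, 19 with at least 10 counts in every library, 20 at an adjusted p under 0.1 and between 4 and 130 without each library in turn, the lowest without wild-type replicate 2 and the highest without mutant replicate 1 (38 without mutant replicate 2). Same-numbered libraries tended to deviate alike (correlation of their deviations across genes 0.481), and their library numbers in the count columns are adjacent, but the labels name no shared litter or batch, so whether they share one is not known and the fit without the block was kept as the main one. With the replicate block 385 genes were called (180 higher, 205 lower), and with the block and no filter 288, and with DESeq2 and the block 118. Either edgeR fit with the replicate block called 1 Hox gene, Hoxd9, with a log2 fold change of -0.55 and an adjusted p of 0.0284 with the filter by the edgeR quasi-likelihood F-test. The block also called Pknox2, Aldh1a2, Itga8, Lhx9, Foxl2, Pax8 and Kdr, and of the muscle and blood markers Myh3, Acta1, Actc1, Mylpf, Hbb-y and Alas2. The cause of these shifts was not tested.

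The median Hox log2 fold change was between -0.44 and 0.017 without each library in turn, and turned positive without mutant replicate 2. The Hoxa log2 ratio of 0.02 was -0.010 with the replicate block and between -0.33 and 0.31 without each library. Without each library, the ratio was between -0.54 and -0.10 for Hoxb, between 0.14 and 0.46 for Hoxc and between -0.58 and -0.36 for Hoxd, and the lowest values of Hoxb and Hoxc came without mutant replicate 1. Hoxa10, with a log2 fold change of 0.002, was at -0.0022 with RLE, -0.011 with upper-quartile normalization, -0.0057 with no filter, -0.019 with at least 10 counts in every library and -0.095 with the replicate block. Leaving out each library turned the sign of 11 genes, which ranged from -1.26 to 0.70 for Hoxa10, -0.56 to 0.076 for Hoxa3, -0.074 to 1.04 for Hoxa4, -0.27 to 0.20 for Hoxa5, -0.76 to 0.66 for Hoxa9, -0.64 to 0.71 for Hoxb2, -1.06 to 0.10 for Hoxb3, -1.03 to 0.014 for Hoxb4, -0.56 to 0.073 for Hoxb6, -0.13 to 0.29 for Hoxc4 and -0.058 to 0.84 for Hoxc10. Among Hoxd genes the widest ranges were -1.45 to -0.45 for Hoxd11 and -1.01 to -0.16 for Hoxd3. Without the block, the likelihood ratio test called Aldh1a2, Itga8, Lhx9, Foxl2 and Kdr, the fit with no filter Aldh1a2, the fit without mutant replicate 1 Aldh1a2 and Lhx9, and that without mutant replicate 2 Aldh1a2. Hoxd9 had the highest wild-type RPKM under each of the 4 alternatives tried.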
